A study of Mus musculus with 14 samples.

Results

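Amino acid carriers of the SLC38 and SLC1 families were compared between hearts of male wild-type C57BL/6 mice on a standard chow diet, sampled at 12 and at 68 weeks of age. The set was 10 genes taken by symbol from the 49315 genes of the deposited RNA-seq count table, namely Slc38a1, Slc38a2, Slc38a3, Slc38a4, Slc38a7, Slc38a9, Slc1a1, Slc1a3, Slc1a4 and Slc1a5. Each symbol stood on 1 row, and all 10 genes passed the filter on low counts. RNA was total RNA from pulverised whole heart tissue, with 4 libraries per age, and the 8 libraries held 23599296 to 34599121 counts. The same series holds lists of regions found by CUT&RUN for H3K27me3, a histone mark that Polycomb repressive complex 2 lays down and that goes with gene silencing, with 2 libraries and 1 input library behind each age's list. The series title concerns dietary glutamine in cardiac ageing. The groups used here were fed chow and differ by age alone in the labels. The labels do not say whether each library is from a mouse of its own, so the p-values cover only how far these libraries spread, which may be technical.

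Glutamine is the most abundant free amino acid of blood and muscle, and cells import it, and the glutamate made from it, through carriers in the plasma membrane. Of the SLC38 proteins, those of Slc38a1, Slc38a2 and Slc38a4 move small neutral amino acids into the cell with sodium (system A), and that of Slc38a3 moves glutamine, asparagine and histidine in exchange for protons (system N). The products of Slc38a7 and Slc38a9 sit in the lysosome, the former exporting glutamine and the latter sensing arginine for the growth kinase mTORC1. Among the SLC1 proteins, those of Slc1a1 and Slc1a3 carry glutamate and aspartate with high affinity. The products of Slc1a4 and Slc1a5 exchange neutral amino acids, the latter with a preference for glutamine.

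In these hearts 4 of the 10 carrier genes fell with age and 0 rose. The genes that fell were Slc38a1, Slc38a4, Slc1a3 and Slc1a5, and their levels at 12 weeks were 1.81-fold to 2.62-fold those at 68 weeks. These calls were from age alone. With the summed level of airway markers in the model 2 of the 4 stayed called (Slc38a1 and Slc38a4). With that of adipocyte or of fibroblast markers, whose sums did not overlap between the ages, 0 did. Calls over all genes tested dropped too, to 19 lower and 68 higher with airway markers. They were 0 and 1 with adipocyte markers, and 1 and 4 with fibroblast markers. The abundant system A gene Slc38a2, the system N gene Slc38a3 and both lysosomal genes were not called. Levels are in CPM, a gene's counts per one-millionth of the TMM-normalized library size, and calls are by edgeR's quasi-likelihood test at an adjusted p of 0.05 over the 15947 genes tested, of which 1.22% were called lower and 1.61% higher, 2.83% in all. Both ages separated completely in the 4 called carriers and overlapped in the other 6, against 12.1% of all genes tested whose libraries did not overlap. The median log2 fold change (68 minus 12 weeks) of all genes tested was -0.0082. In whole-tissue RNA, fewer cells of a type and less RNA per cell cannot be told apart.

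**Figure D1:**
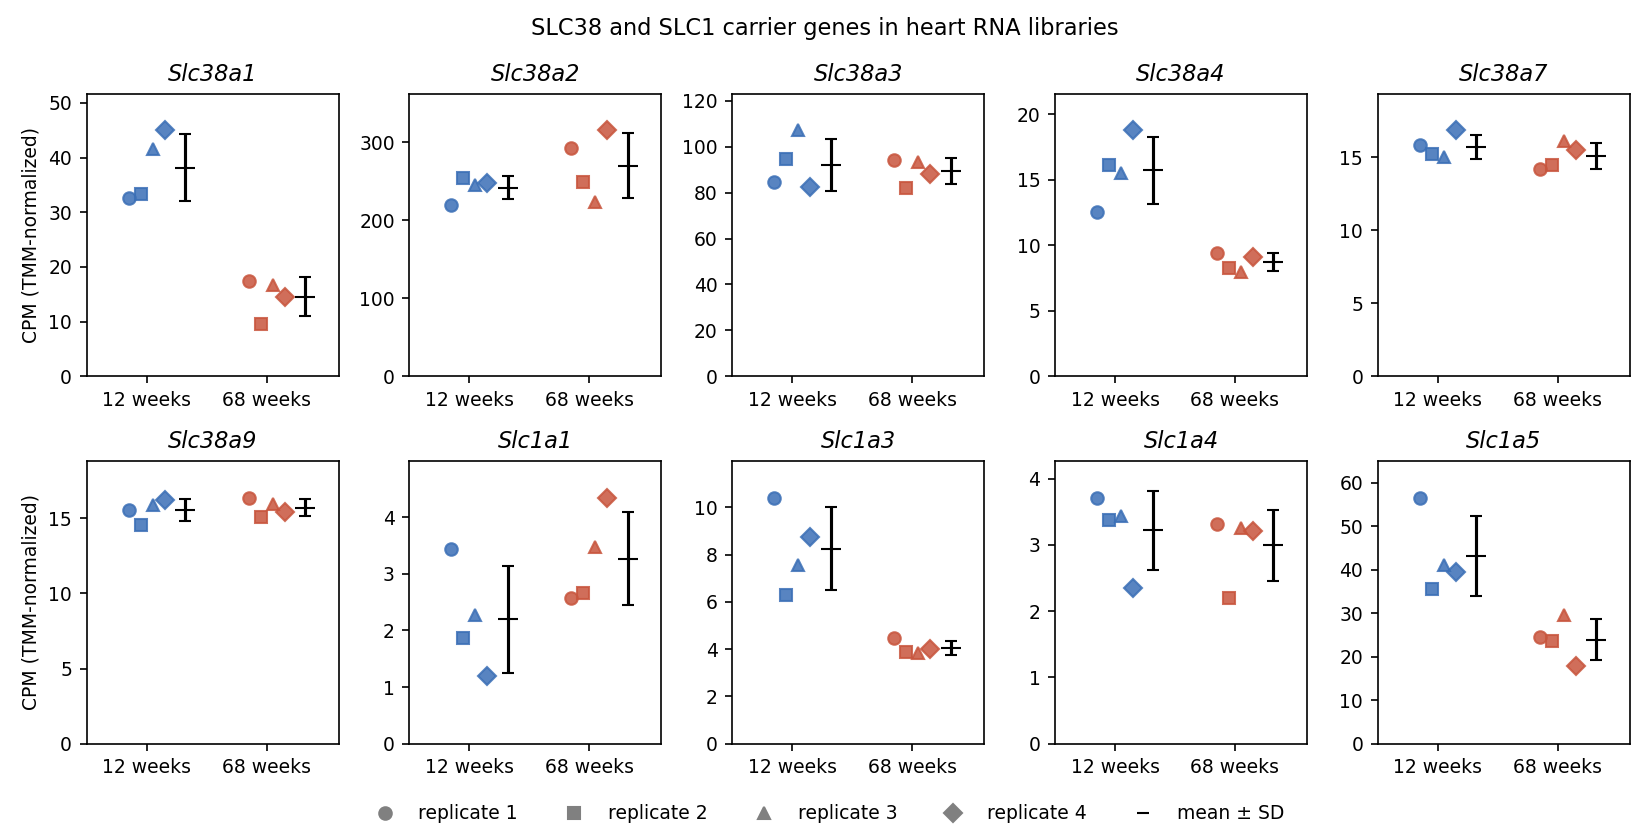
Level in CPM (linear axis from 0) of each carrier gene in the 4 libraries at 12 weeks (blue) and the 4 at 68 weeks (red), with the mean and SD in black. In Slc38a1, Slc38a4, Slc1a3 and Slc1a5 every 68-week library lies below every 12-week library; in the other 6 genes the ages overlap.

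Among the system A genes, Slc38a1 (chromosome 15, 96571418 to 96642913, minus strand, mm10 by label) showed the largest age difference of the 10. The 12-week libraries, replicates 1 to 4, had 32.7, 33.4, 41.6 and 45.0 CPM. The 68-week libraries, in the same order, had 17.5, 9.52, 16.7 and 14.5 CPM. The highest aged library was thus well below the lowest young one, and 68-week replicate 2 was the lowest of all 8. Slc38a1 fell by 1.39 ± 0.18 (SE) on the log2 scale (adjusted p = 0.0068, edgeR), from 38.2 ± 6.08 CPM to 14.5 ± 3.58 CPM (SD, n = 4 libraries per age). Its 12-week level was 2.62-fold that at 68 weeks, and the upper end of the 95% interval of the log2 fold change was -0.99.

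Slc38a4 (chromosome 15, 96994823 to 97055956, minus strand), a system A gene that is imprinted in the mouse, fell as well. Replicates 1 to 4 had 12.5, 16.2, 15.5 and 18.8 CPM at 12 weeks and 9.4, 8.29, 7.96 and 9.13 CPM at 68 weeks. The aged libraries lay close together, and 12-week replicate 4 was the highest, as it was for Slc38a1. The log2 fold change was -0.85 ± 0.12 (adjusted p = 0.0084, edgeR), from 15.7 ± 2.56 to 8.7 ± 0.683 CPM.

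Slc38a2 lies between these genes on chromosome 15 (96687394 to 96699698), 44.5 kb from Slc38a1 and 295 kb from Slc38a4 in the count tables' annotation, on the same strand. This carrier, which cells induce when amino acids run short, had 219.99, 254, 245 and 248 CPM in the young libraries, replicates 1 to 4. At 68 weeks it was at 293, 249, 224 and 315 CPM. The ages overlapped, the aged libraries spread more widely, and 68-week replicate 4 was the highest of the 8. The log2 fold change was 0.16 ± 0.10 (adjusted p = 0.438, edgeR), with a 95% interval from -0.071 to 0.39, which leaves room for a rise of up to 1.31-fold. Slc38a1 therefore stood at 7.24% to 9.98% of the length-scaled level of Slc38a2 at 12 weeks and at 2.11% to 4.12% at 68 weeks.

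Promoter sequences are shown for 2 of the genes that fell, Slc38a4 and Slc1a3, and for Slc38a2, the neighbour that was not called. They are the 250 bases upstream of the annotated start, 5′ to 3′ on the gene's strand, from RefSeq on GRCm38.p6, at chr15:97055957-97056206 (Slc38a4, minus strand), chr15:8710808-8711057 (Slc1a3, minus strand) and chr15:96699729-96699978 (Slc38a2, minus strand). Capitals mark matches, on either strand, to any of 5 motifs: the E-box with the letters CACGTG, the core of the amino acid response element with TGATGNAA, the CCAAT box, the GC box with GGGCGG, and the TATA box with TATAAA.
Slc38a4: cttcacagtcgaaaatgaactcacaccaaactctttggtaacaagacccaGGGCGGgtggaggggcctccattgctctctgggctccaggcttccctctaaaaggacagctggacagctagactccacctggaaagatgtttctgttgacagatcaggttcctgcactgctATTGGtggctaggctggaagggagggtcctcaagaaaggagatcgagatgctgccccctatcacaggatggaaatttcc
Slc1a3: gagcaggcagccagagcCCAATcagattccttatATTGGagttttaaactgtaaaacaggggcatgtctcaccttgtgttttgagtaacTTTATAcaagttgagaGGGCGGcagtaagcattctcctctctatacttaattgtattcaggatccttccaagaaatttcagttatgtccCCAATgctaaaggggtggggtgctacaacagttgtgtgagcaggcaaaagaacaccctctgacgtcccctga
Slc38a2: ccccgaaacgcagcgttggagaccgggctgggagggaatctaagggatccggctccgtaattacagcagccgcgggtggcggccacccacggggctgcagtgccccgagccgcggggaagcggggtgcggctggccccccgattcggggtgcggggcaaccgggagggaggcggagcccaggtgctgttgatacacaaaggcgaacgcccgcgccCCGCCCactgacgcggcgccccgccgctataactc
Slc38a2's window was rich in G and C, at 72.0% with 30 CpG dinucleotides. The windows of Slc38a4 and Slc1a3 had 52.8% and 44.8% with 3 and 2 CpG, and the median over the 32851 promoter entries was 52.4% and 6. Slc1a3 had 3 CCAAT matches, 1 GC box match and 1 TATAAA match, Slc38a4 had 1 CCAAT and 1 GC box match, and Slc38a2 had 1 GC box match. None of these matches overlapped another. Over all entries, 33.8% held CCAAT, 32.7% GGGCGG, 12.4% TATAAA, 6.02% CACGTG and 3.45% TGATGNAA in this window. CACGTG and TGATGNAA had 0 matches in the 3 windows, which says only that these letters are not there. Of the 10 genes, 7 had an entry in that table, Slc38a4 with 3 starts, of which the one at the gene's start in the count tables is shown; Slc38a1, Slc38a3 and Slc1a5 had none.

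Slc1a3 (chromosome 15, 8634124 to 8710764, minus strand), the high-affinity glutamate carrier best known from astrocytes, fell as well, its 12-week level being 2.04-fold that at 68 weeks. Young replicates 1 to 4 had 10.4, 6.28, 7.58 and 8.74 CPM, and aged replicates 1 to 4 had 4.47, 3.89, 3.84 and 3.99 CPM. The aged libraries were nearly level, while the young ones spread, with replicate 1 the highest. The log2 fold change was -1.03 ± 0.15 (adjusted p = 0.0101, edgeR). With the airway marker sum added it was -1.05 ± 0.19 and no longer called (adjusted p = 0.0598, edgeR). That fit called 19 of all genes tested lower and 68 higher, against 195 and 256 with age alone.

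The neutral amino acid exchanger gene Slc1a5 (chromosome 7, 16781340 to 16798274, plus strand), whose product is a main glutamine carrier of dividing cells, fell too, with 56.5, 35.5, 41.2 and 39.4 CPM in young replicates 1 to 4. At 68 weeks it stood at 24.5, 23.7, 29.5 and 17.9 CPM. Replicate 1 was the highest at 12 weeks and replicate 3 at 68 weeks, and the gap between the ages, from 29.5 to 35.5 CPM, was narrower than for Slc38a1. The log2 fold change was -0.85 ± 0.17 (adjusted p = 0.0341, edgeR). This call was lost when 12-week replicate 1 or 3, or 68-week replicate 1, 2 or 4, was left out, with log2 fold changes of -0.69, -0.87, -0.87, -0.85 and -0.73 and adjusted p from 0.0609 to 0.0878 (edgeR). Slc38a1, Slc38a4 and Slc1a3 stayed called in each of the 8 fits that left out 1 library.

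The other carriers of the plasma membrane were not called. Slc38a3, of system N, was at 82.3 to 107 CPM at 12 weeks and 81.9 to 94.2 CPM at 68 weeks. Its log2 fold change of -0.044 ± 0.086 had a 95% interval from -0.24 to 0.15. Slc1a4, the exchanger of alanine, serine and cysteine, was low, at 3.71, 3.38, 3.44 and 2.35 CPM at 12 weeks and 3.31, 2.2, 3.26 and 3.21 CPM at 68 weeks. Replicate 4 was the low library at 12 weeks and replicate 2 at 68 weeks, and the log2 fold change was -0.10 ± 0.18.

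The glutamate carrier gene Slc1a1 had a higher mean at 68 weeks but did not pass the test. Young replicates 1 to 4 had 3.45, 1.87, 2.28 and 1.19 CPM, and their aged counterparts by number 2.58, 2.67, 3.48 and 4.34 CPM. The ages overlapped through 12-week replicate 1, and the gene had only 33 to 146 counts per library. With age alone the log2 fold change was 0.57 ± 0.30 (adjusted p = 0.341, edgeR). Its 95% interval in that fit, up to 1.24, allows a rise of up to 2.36-fold. With the fibroblast marker sum in the model the log2 fold change was 1.32 ± 0.46 and was not called (adjusted p = 0.432, edgeR).

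Both lysosomal genes were steady across the 8 libraries. Slc38a7 ranged from 15.02 to 16.9 CPM at 12 weeks and from 14.2 to 16.1 CPM at 68 weeks. Slc38a9 ranged from 14.6 to 16.2 CPM and from 15.1 to 16.4 CPM. Their log2 fold changes were -0.062 ± 0.065 and 0.014 ± 0.058, with 95% intervals from -0.21 to 0.084 and from -0.11 to 0.14, the narrowest of the 10.

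Levels were set against each other per kb of the gene length in the count tables. At 12 weeks the order was Slc38a2 (52.3 ± 3.26 CPM per kb), Slc38a3 (17.5 ± 2.15), Slc1a5 (10.3 ± 2.21), Slc38a1 (4.55 ± 0.724), Slc38a4 (3.98 ± 0.647), Slc38a7 (3.8 ± 0.20), Slc38a9 (1.75 ± 0.0792), Slc1a3 (0.966 ± 0.205), Slc1a4 (0.82 ± 0.153) and Slc1a1 (0.356 ± 0.153). Neighbours whose 4 libraries overlapped were Slc38a1 and Slc38a4, Slc38a4 and Slc38a7, and Slc1a3 and Slc1a4. At 68 weeks Slc38a1 had gone from rank 4 to rank 7, at 1.73 ± 0.427 CPM per kb, where it overlapped Slc38a9 (1.76 ± 0.0632). Slc1a3 had gone from rank 8 to rank 10, at 0.474 ± 0.0339, where it overlapped Slc1a1 (0.53 ± 0.133), which in turn overlapped Slc1a4 (0.763 ± 0.136). Slc38a2, Slc38a3 and Slc1a5 kept ranks 1 to 3, the last at 5.73 ± 1.13 CPM per kb. The share of Slc38a2 in the summed length-scaled level of the 10 genes was 54.3% at 12 weeks and 63.4% at 68 weeks, and that of Slc38a1 4.72% and 1.88%. The sum itself overlapped between the ages, at 92.5 to 99.5 CPM per kb at 12 weeks and 84.6 to 100.7 at 68 weeks.

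**Figure D2:**
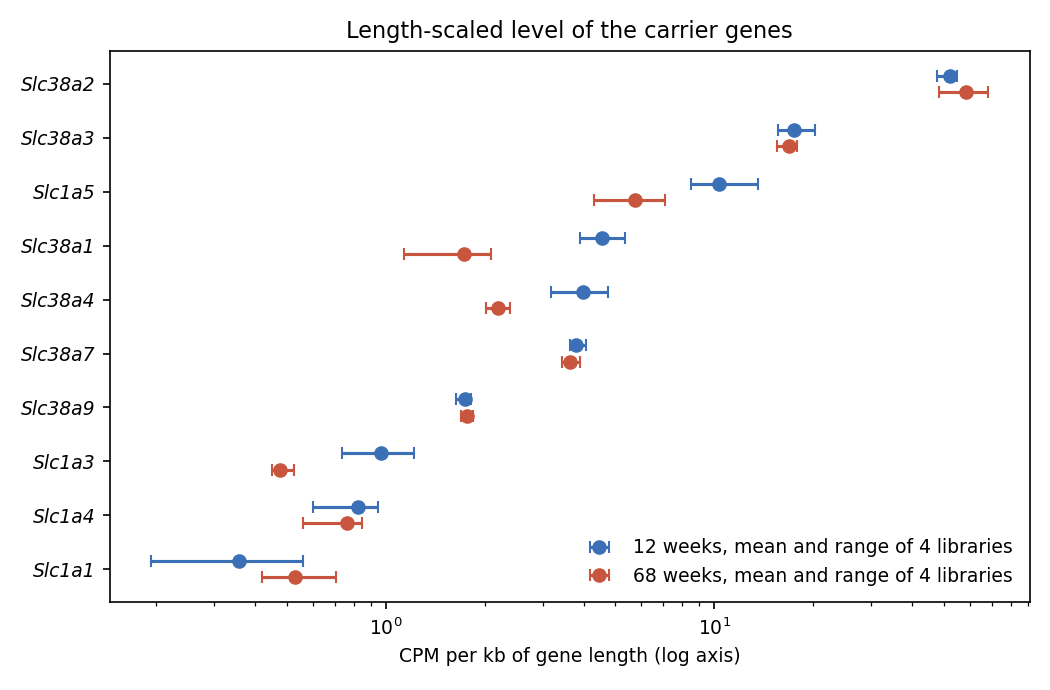
CPM per kb of gene length (log axis) of the 10 carrier genes at 12 weeks (blue) and 68 weeks (red), as the mean and the range of 4 libraries. Slc38a2 leads at both ages, at 52.3 and 58.4 CPM per kb. The mean of Slc38a1 drops from 4.55 to 1.73, below the means of Slc38a4, Slc38a7 and Slc38a9. Its range at 68 weeks (1.13 to 2.08) overlaps those of Slc38a9 (1.69 to 1.84) and Slc38a4 (2.01 to 2.38).

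The heart libraries differed in transcripts of other cell types, and these values belong beside the carrier results. Cardiac myocyte markers (10 of 10 measured, 1 called higher) came to between 47619 and 53572 CPM at 12 weeks and between 54198 and 57605 at 68 weeks, as sums scaled to total counts. Airway epithelium markers (20 in the table, 16 tested, 0 called) came to 1867, 994 and 591 CPM in the first 3 young replicates and 1105 CPM in aged replicate 3, against 17.7 to 66.9 CPM in the other 4 libraries. Adipocyte markers (12, of which 5 fell) summed to 736 to 1372 CPM at 12 weeks and 339 to 599 at 68 weeks, and fibroblast markers (10, of which 1 fell) to 2679 to 3174 and 1966 to 2452 CPM. The cardiac myocyte, adipocyte and fibroblast sums did not overlap between the ages, so these contents and age cannot be told apart in this design; no fit with the myocyte sum was made. In the adipocyte, fibroblast and airway lists 0 markers were at 0 in all libraries, though 13 airway markers, Scgb1a1, Foxj1 and Krt5 among them, were at 0 in some. Of the other marker lists, B and T lymphocyte markers had 3 of 8 tested called lower and macrophage markers 1 of 10, and 0 were called among markers of endothelium, smooth muscle and pericytes, glia, neutrophils and mesothelium. Over all genes tested, 1.22% were called lower and 1.61% higher. Fabp4, the most abundant adipocyte marker, is on the endothelium list too. The adipocyte sum was highest in 12-week replicate 4, which was also highest for Slc38a1 and Slc38a4. In 12-week replicate 1 that sum was 1207 CPM, and this was the lowest young library for both genes. Aged replicate 2 had the highest adipocyte sum of its age, 599 CPM, and the lowest Slc38a1 level. The airway, fibroblast, endothelium, macrophage, and smooth muscle and pericyte sums were all highest in 12-week replicate 1, which was highest for Slc1a3 and Slc1a5. What ties these sums to the carriers was not tested.

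The 4 calls were recomputed with the log2 sum of a marker list beside age in the model. With the airway sum Slc38a1 and Slc38a4 stayed called, at -1.39 ± 0.21 and -1.02 ± 0.12, while Slc1a3 (-1.05 ± 0.19, adjusted p = 0.0598) and Slc1a5 (-0.64 ± 0.17, adjusted p = 0.173, edgeR) did not. With the adipocyte sum the log2 fold changes were -1.47 ± 0.39 for Slc38a1, -0.94 ± 0.25 for Slc38a4, -0.65 ± 0.29 for Slc1a3 and -0.30 ± 0.29 for Slc1a5, with adjusted p from 0.477 to 0.898 (edgeR). With the fibroblast sum, an addition made after the sums were seen, they were -1.16 ± 0.30, -1.02 ± 0.20, -0.80 ± 0.26 and -0.55 ± 0.28, with adjusted p from 0.163 to 0.614 (edgeR). Of the 10 carriers 0 were called in either of these fits. Over all genes tested, these fits called 0 and 1 lower and 1 and 4 higher. The airway fit called 19 lower and 68 higher. Of the 4 genes, Slc1a5 had the smallest value in each of these fits, and with the adipocyte sum it was about as large as its SE. The ages were also compared among the 4 libraries lowest in airway counts (1 at 12 weeks, 3 at 68 weeks) and the 4 highest (3 and 1). Slc38a1, Slc38a4, Slc1a3 and Slc1a5 had -1.70 ± 0.27, -1.07 ± 0.13, -1.08 ± 0.16 and -0.84 ± 0.18 in the former. They had -1.10 ± 0.16, -0.88 ± 0.18, -1.08 ± 0.30 and -0.59 ± 0.24 in the latter. In both sets 1 arm is a single library, assumed to vary like the others, so only effect sizes are given here.

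**Figure D3:**
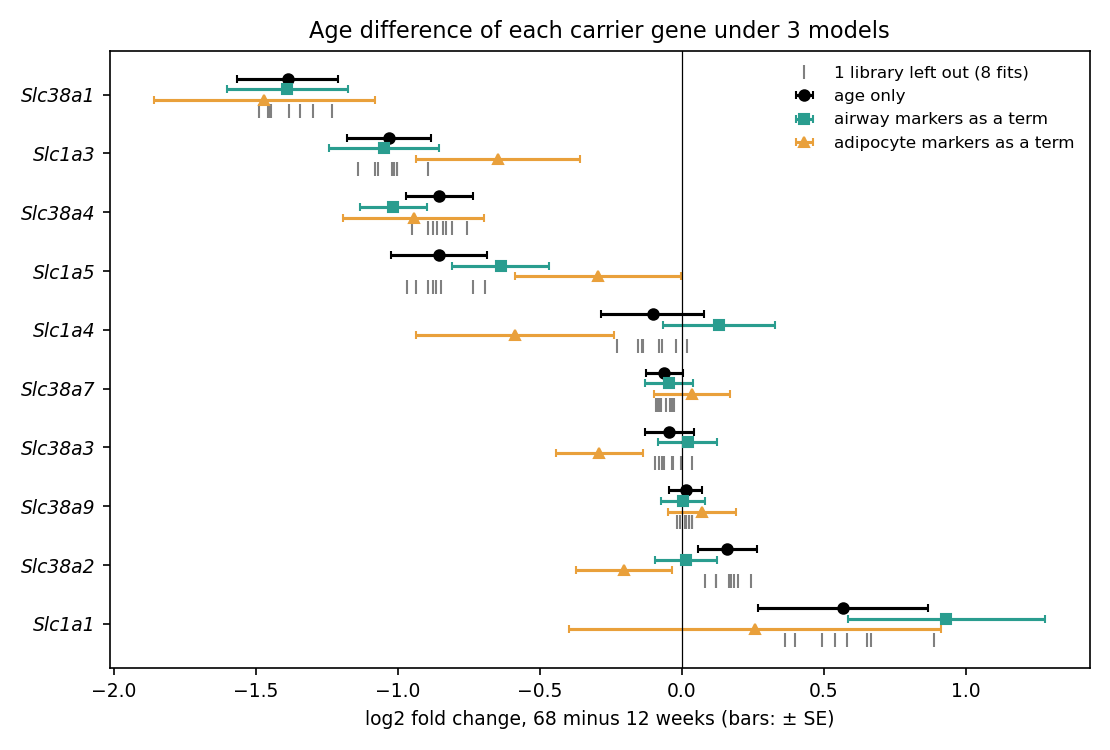
Log2 fold change of each carrier gene, 68 minus 12 weeks, with age alone (black), with the airway marker sum (green) and with the adipocyte marker sum (orange) in the model, with SE bars; gray ticks are the 8 fits that each leave out 1 library. Slc38a1 lies between -1.47 and -1.39 and Slc38a4 between -1.02 and -0.85 in the 3 models, while Slc1a5 goes from -0.85 with age alone to -0.30 with the adipocyte sum.

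The genes whose log2 CPM followed each fallen carrier most closely over the 8 libraries were picked by Pearson's r among 10615 genes (mean log2 CPM 2 or more), as a description that includes the age difference itself. For Slc38a1 they were Tceal8 (0.989), Wscd1 (0.972) and Armcx4 (0.971). For Slc38a4 they were Tlcd1 (0.98), Ngly1 (0.968) and Zfand6 (0.963). Slc1a3 was followed by Tmem168 (0.978), Hace1 (0.97) and Galnt18 (0.97), and Slc1a5 by Pan2 (0.982), Tspan15 (0.979) and the H3K4 demethylase gene Kdm5b (0.978). Of these 12 genes 5 were themselves called lower, against 1.22% of all genes tested. A higher share is built in, since they were picked for following carriers that fell. The 5 were Armcx4 (log2 fold change -1.59), Tceal8 (-0.68), Tlcd1 (-0.42), Wscd1 (-0.35) and Galnt18 (-0.33). The other 7 were not called, with values from -0.74 (Tspan15) to -0.099 (Tmem168).

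Of 8 further SLC38 and SLC1 genes, 5 passed the filter and 0 were called. Over all genes tested 2.83% were called, so a count of 0 among 5 is near that share. The median log2 fold change was -0.19 for the further SLC38 genes and -0.24 for the SLC1 genes, against -0.0082 over all genes tested. Slc38a10, at 123 ± 4.66 CPM at 12 weeks and 122 ± 7.07 at 68 weeks, was the most abundant of the 5, with a log2 fold change of -0.011 ± 0.054. Slc38a6 (-0.19 ± 0.15), Slc38a11 (-0.31 ± 0.27), Slc1a2, the main glutamate carrier of brain (-0.088 ± 0.15), and Slc1a7 (-0.39 ± 0.29) all had means under 3 CPM at both ages. Slc38a5, Slc38a8 and Slc1a6 had 2 to 21, 0 to 1 and 0 to 2 counts per library and were not tested.

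Of 18 exchangers and partner subunits coupled to glutamine or glutamate, 11 were tested and 0 were called, against 2.83% of all genes tested. Their median log2 fold change was -0.12, against -0.0082 over all genes tested. The gene closest to the threshold was Slc7a5, which exports glutamine in exchange for leucine. It was at 7.65 ± 1.39 CPM at 12 weeks and 10.7 ± 0.941 at 68 weeks (0.49 ± 0.13, adjusted p = 0.0748, edgeR). Slc17a7, a vesicular glutamate carrier, had 0.72 ± 0.19 (adjusted p = 0.0846) and Slc7a10 had -1.20 ± 0.39 (adjusted p = 0.132, edgeR).

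Of 30 glutamine and glutamate enzymes, 29 were tested and Abat alone was called, against 2.83% of all genes tested. The median of this list was -0.024. Abat, the mitochondrial enzyme that breaks down GABA, rose from 18.9 ± 2.47 to 32.8 ± 7.72 CPM. Psat1 of serine synthesis (0.42 ± 0.15) and Pfas of purine synthesis (-0.15 ± 0.063) had the next smallest p and were not called.

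Genes of amino acid sensing and response were counted next, beside 1.22% called lower and 1.61% called higher over all genes tested. Of 28 genes of lysosomal amino acid sensing, 26 were tested and 0 called, the smallest p being those of the leucine sensor gene Sesn2 (-0.39 ± 0.11, adjusted p = 0.0847, edgeR), Mtor (0.18 ± 0.059) and Rragc (0.12 ± 0.046). Of 12 regulators of the amino acid response and of carrier transcription, 2 rose and 1 fell. The stress regulators Nfe2l2 (0.34 ± 0.07, adjusted p = 0.0365) and Ddit3 (0.37 ± 0.082, adjusted p = 0.0468, edgeR) rose. Chac1, which degrades glutathione and is a target of the same response as Ddit3, fell from 5.04 ± 1.82 to 1.96 ± 0.404 CPM (-1.35 ± 0.29, adjusted p = 0.044, edgeR), although 12-week replicate 1, at 2.44 CPM, lay close to 68-week replicate 3, at 2.38. Of 8 ubiquitin ligases, kinases and scaffolds that act on these carriers, 7 were tested and 0 called. The smallest p were those of the kinase gene Sgk1 (0.43 ± 0.13), Slc9a3r1 (-0.41 ± 0.17) and Rnf5 (0.12 ± 0.065). The medians of these lists were 0.0026, -0.045 and -0.014, against -0.0082 over all genes tested.

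In the H3K27me3 lists, which hold the regions the authors name unique to 1 age, Slc38a1 alone of the 10 carriers was linked to a region, and only in the 68-week list. That list holds 3433 regions and links 551 of the 15947 genes tested, or 3.46%. The 12-week list holds 1164 regions, links 1.44% of them and named 0 of the carriers. Of the 195 genes called lower with age alone, the 68-week list links 11 and the 12-week list 2. Of the 256 called higher, each list links 19. What ties a link to the RNA level of a gene was not tested. The Slc38a1 region was deposited as chromosome 15, 96538321 to 96539318, with no build named in the list. At 998 bases it was the widest but 10 of its list, ranking 11 of 3433, against a median width of 267 bases. Its score of 4.66, the authors' own value on a scale not given in the sources used here, was just below the list's median of 4.77. The same region was also linked to a gene ID with no symbol that is not among the genes counted. The lists give no value per library, so no error or test could be given.

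As deposited, the centre of that region minus the start of Slc38a1 in the count tables was -104 kb, in coordinates that may not share a build. Other links nearby were displaced to the same side. Over the 16 other links within 5 Mb, to 13 genes, the region centre minus gene start had a median of -100.01 kb, with quartiles of -103 and -98.4 kb and a range from -127 to -35.9 kb, and 16 of 16 were negative. The value differed between links: the 2 links to Scn8a had -102 and -35.9 kb, and Tmem117 had -71.9 kb. It is taken from the gene's start, so it also depends on where a region lies along its gene. The lists name no build and the reason for the offset was not tested. These offsets are therefore not read as a distance between the region and the gene. Compared with other regions of the lists, 3 further 68-week regions without a linked gene lay 19.8, 109 and 113 kb from it. The nearest region of the 12-week list lay 1525 kb away. That list is shorter, with 1164 regions against 3433, and no expected spacing was worked out for either.

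**Figure D4:**
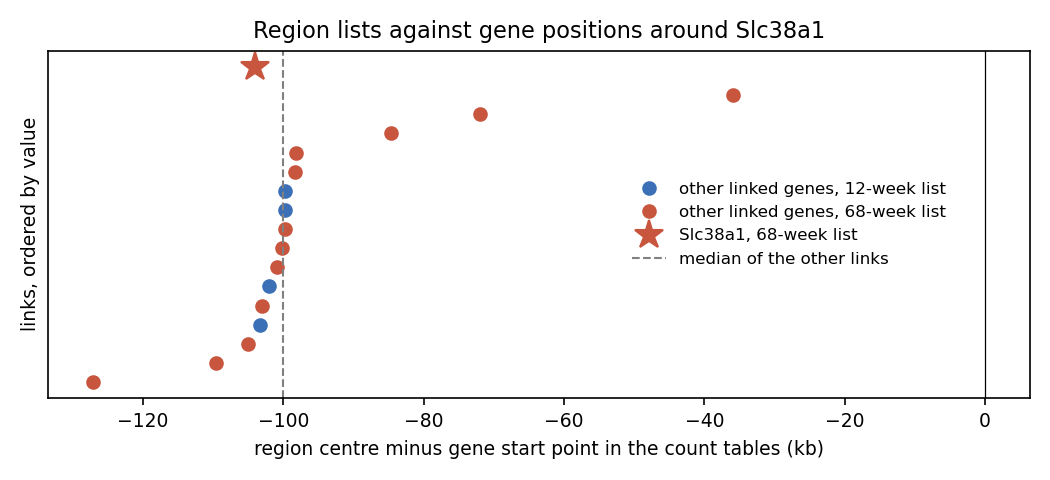
Region centre minus the start point of the linked gene in the count tables, in kb, for the Slc38a1 link (star) and the 16 other links within 5 Mb in the 68-week (red) and 12-week (blue) lists, ordered by value; the dashed line is the median of the others. The Slc38a1 value of -104 kb lies beside the median of -100.01 kb, and 16 of 16 other values are below 0.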

How the data were processed

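The authors deposited raw counts of reads per gene, per the file headers; the series table equalled the separate file of 8 of 8 libraries. Trimmomatic 0.36, STAR 2.5.2b, featureCounts of Subread 1.5.2, MACS3 3.0.0b1 and mm10 are among the names in the submitters' processing notes, which give no role or order; whether strand was used is not given in the sources used here. Deposited region lists carry an enrichment score per region, per the file headers.

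Age was tested by edgeR 4.0.16, R 4.3.3 (quasi-likelihood, TMM, filterByExpr, Benjamini-Hochberg over 15947 genes), with no other term. CPM uses normalized library sizes; marker sums use total counts. The SE is the size of the log2 fold change over the square root of F, and intervals use its t quantile; both are approximate. DESeq2 1.42.0 was an alternative. The script was tested on simulated data. Between libraries of an age, chi-square over degrees of freedom was 17.4 or more, and none was treated as a duplicate. Of rows with a listed symbol, 1 named Ppat was dropped because the reference names its ID otherwise. Members, lists and the rule for named genes (all members; called genes of each list, or up to 3 by smallest p; the 3 most alike genes of each called member) were chosen with earlier results of these data known.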

Additional observations from a re-analysis of the deposited data

Results flagged for a closer look

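In 72 groups of 4 libraries, 5 had a library set apart from the others (Dixon's test of the gap to the nearest library), where chance gives about 1 in 20. Slc1a4 stood at 2.2 CPM in 68-week replicate 2, against 3.21 to 3.31 CPM in the other aged libraries. The same library was apart for Slc17a7, at 77.4 CPM against 101.9 to 105.9, and for Sgk1, at 76.0 CPM against 53.8 to 57.4. The airway marker sum was 1105 CPM in 68-week replicate 3 against 17.7 to 29.4 CPM in the other 3. The cardiac myocyte marker sum was 47619 CPM in 12-week replicate 4 against 52940 to 53572 CPM.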

How the results depend on the processing

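The fall of Slc38a1, Slc38a4, Slc1a3 and Slc1a5 kept its direction in all 19 alternatives, with log2 fold changes of -1.70 to -1.10, -1.07 to -0.76, -1.14 to -0.65 and -0.97 to -0.30, and was called in 15, 15, 14 and 9 of them. The count of 4 carriers lower became 2 with airway markers in the model, 0 with adipocyte markers, 0 with fibroblast markers, and 0 in each set of 4 libraries with the most or fewest airway counts; these last sets had 1 library in an arm, assumed to vary like the others. It was 3 to 4 when 1 library was left out. The count of carriers higher was 0 throughout. Slc1a1 stayed above 0 in all 19 alternatives, at 0.26 to 1.43, and at 0.36 to 0.89 when 1 library was left out. For the uncalled members the sign turned in some settings: Slc38a9 to -0.044 with library size alone and -0.051 in the 4 low-airway libraries; Slc38a3 to 0.021 with airway markers and 0.099 in those 4 libraries; Slc1a4 to 0.13, 0.44 and 0.31 with airway markers, fibroblast markers and those 4 libraries; Slc38a2 to -0.20 with adipocyte markers and -0.099 in the 4 with the most airway counts; Slc38a7 to 0.035, 0.0021 and 0.069 with adipocyte markers, fibroblast markers and those last 4. Leaving out 1 library gave -0.016 to 0.036 for Slc38a9, -0.093 to 0.036 for Slc38a3 and -0.23 to 0.018 for Slc1a4. The cause of these changes was not tested. Of regions at or above their list's median score, 0 were linked to a carrier at 68 weeks. Over all genes, the 195 lower and 256 higher became 248 and 176 with library size alone, 436 and 564 with DESeq2, 19 and 68 with airway markers, 0 and 1 with adipocyte markers, 1 and 4 with fibroblast markers, 1 and 4 and 23 and 10 in the 4 libraries with the most and fewest airway counts, and 52 to 154 and 117 to 209 with 1 library left out. The replicate numbers of the labels did not pair the ages (correlations of same-numbered deviations -0.24, -0.041, 0.041 and 0.33; 0 of 4 replicate numbers correlated best with their own). With the number as a replicate block, 4 carriers were lower, the log2 fold change of Slc38a1 was -1.41, and 48 and 112 of all genes were called lower and higher.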

Other observations

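Of 102 genes of the pathway lists outside the 10 carriers, 1 was linked to a region of the 12-week list (0.98%, against 1.06% of all genes in the count table) and 3 to regions of the 68-week list (2.94%, against 2.4%), shares near the background of that table. Of the 90 that were tested for age, 1 was linked in each list, against 1.44% and 3.46% of all genes tested. Slc17a7, the vesicular glutamate carrier gene, was linked in both lists, to a region of 211 bases with a score of 3.97 at 12 weeks and to another of 412 bases with a score of 4.38 at 68 weeks. In RNA it stood at 59.0 ± 18.1 CPM at 12 weeks and 97.1 ± 13.3 at 68 weeks and was not called. Slc38a5, which had 2 to 21 counts per library, was linked to a 68-week region of 204 bases with a score of 4.33. Gad1, which makes GABA from glutamate and did not pass the filter on low counts, was linked to a 68-week region of 267 bases with a score of 4.42. These regions too lay apart from their genes in the count tables, by 131 to 346 kb to the region centre, so no distance is read from them.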
